A study of Mus musculus with 10 samples.

Results

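Genes of the proximal tubule were followed in preparations of glomeruli, the filtering units of the kidney. The set held 35 genes chosen by name for their known use in proximal tubule cells. The choice was made with earlier results of these data known. Of the 35 genes, 33 could be measured among 18193 genes on the array. Each gene was read by 1 probe set, the one with the highest mean over 10 arrays among probe sets annotated to a single gene. Ggt1 and Acmsd had no such probe set in the annotation used and were not analysed here. The glomeruli came from male FVB/N mice aged 27 days, at generation 4 of backcrossing, after magnetic beads had been perfused through the heart. Of the 10 mice, 5 were heterozygous for the R394W missense allele of Wt1 (Wt1 +/R394W, hereafter mutants) and 5 were littermates with 2 normal alleles (Wt1 +/+, hereafter wild types). Each mouse gave 1 array, and mice are numbered within a genotype only to name them. The mutation was carried in all cells of the body, so a difference in a tubule transcript could arise in any cell type. According to the series description, the mutants had little albumin in urine and no mesangial lesions by light microscopy.

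The proximal tubule takes back most of what the glomerulus filters. Megalin (Lrp2) and cubilin (Cubn) capture filtered protein at its brush border, sodium-coupled carriers recover phosphate, glucose, lactate and amino acids, organic anion carriers secrete drugs and metabolites, and the cells make glucose through G6pc, Fbp1 and Pck1. Pieces of tubule lie around glomeruli in the cortex, and a glomerular preparation can keep some of them. In bulk RNA of such a preparation, fewer tubule cells and less of a transcript per tubule cell cannot be told apart.

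The proximal tubule genes share transcription factors of the HNF1 and HNF4 families, and Hnf4a is itself one of the 33 genes. Promoter windows of 300 bases (250 before the start site and 50 from it onward) were at hand for 29 of the 33, from RefSeq in build GRCm38.p6. The letters GTTAAT, the core of HNF1 sites, stood on either strand in 11 of 29 (37.9%), against 8.24% of 27025 genes. These 11 were Slc34a1, Slc22a6, Slc22a8, Miox, G6pc, Pck1, Hnf4a, Slc3a1, Slc7a7, Hao2 and Akr1c21. The letters CAAAGTCCA, an HNF4-type site, stood in 2 of 29 (6.90%), Slc3a1 and Pdzk1, against 0.555% of all genes. The full palindromic HNF1 motif, which contains this core, matched in 0 of 29 windows, against 0.074% of all genes. A match of letters is a description of the window and not a binding site. The windows of 4 carriers are given as examples of the 11 with a match, all of them among the 23 genes that followed a shared pattern over the arrays. Capitals mark GTTAAT or its reverse complement and, in Slc3a1, CAAAGTCCA as well.
Slc34a1 (chr13:55399398-55399697, plus strand): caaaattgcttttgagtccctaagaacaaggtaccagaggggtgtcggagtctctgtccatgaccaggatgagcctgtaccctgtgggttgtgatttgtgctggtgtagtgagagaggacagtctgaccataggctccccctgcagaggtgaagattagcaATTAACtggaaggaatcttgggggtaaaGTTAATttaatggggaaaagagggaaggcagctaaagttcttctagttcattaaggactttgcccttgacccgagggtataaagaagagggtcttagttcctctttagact
Slc22a6 (chr19:8617746-8618045, plus strand): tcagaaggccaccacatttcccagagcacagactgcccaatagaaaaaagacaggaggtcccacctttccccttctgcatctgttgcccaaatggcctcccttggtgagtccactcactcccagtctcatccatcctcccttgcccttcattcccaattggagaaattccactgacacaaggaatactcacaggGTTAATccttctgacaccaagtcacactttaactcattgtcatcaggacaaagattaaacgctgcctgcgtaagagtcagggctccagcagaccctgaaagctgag
Slc22a8 (chr19:8592932-8593231, plus strand): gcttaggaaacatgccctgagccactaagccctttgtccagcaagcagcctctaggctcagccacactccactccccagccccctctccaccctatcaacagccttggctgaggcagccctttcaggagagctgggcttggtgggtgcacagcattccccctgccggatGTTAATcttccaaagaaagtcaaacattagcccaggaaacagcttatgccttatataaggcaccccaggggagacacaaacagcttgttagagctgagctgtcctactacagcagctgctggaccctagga
Slc3a1 (chr17:85028097-85028396, plus strand): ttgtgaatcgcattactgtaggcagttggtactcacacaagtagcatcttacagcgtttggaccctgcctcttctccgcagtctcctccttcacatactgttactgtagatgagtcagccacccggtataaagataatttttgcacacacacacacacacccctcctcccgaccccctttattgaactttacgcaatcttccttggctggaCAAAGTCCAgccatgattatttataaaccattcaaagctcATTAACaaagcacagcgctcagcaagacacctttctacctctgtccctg
With the start site at position 0, the GTTAAT of Slc34a1 began at positions -89 and -61, that of Slc22a6 at -56 and that of Slc22a8 at -81. In Slc3a1 the HNF1 core began at position 1, just past the start site, and the HNF4-type site at -39. Slc22a6 and Slc22a8 encode OAT1 and OAT3, the basolateral organic anion carriers, and lie next to each other on chromosome 19.

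The arrays were alike as wholes, with medians spread over 0.0817 log2 units and pairwise r from 0.985 to 0.997, and none repeated another's values. Wt1 itself ran from 11.43 to 11.85 in mutants, against 11.06 to 11.45 in wild types, a difference of 0.33 ± 0.10 (SE, limma adjusted p = 0.244); a missense allele leaves the transcript, so this level does not check the labels. The gap between 3' and 5' probe sets of actin, a sign of RNA quality, was 0.18 to 0.33 in mutants and 0.20 to 0.41 in wild types. Mutant 5 had the lowest actin gap of all arrays and wild type 5 the highest. For Gapdh the gap was -0.23 to -0.07 in mutants, lowest in mutant 5. In wild types it was -0.17 to 0.07, with -0.04 in wild type 5. The part of RNA quality in the levels below was not tested.

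The level of the proximal tubule genes differed between mice of the same genotype far more than that of most genes. Averaged over the 33 genes, the log2 level was 9.25, 8.63, 8.09, 9.91 and 6.65 in mutants 1 to 5, against 8.84, 8.09, 8.39, 8.89 and 6.57 in wild types 1 to 5. Each genotype thus held 1 mouse far below its other 4, mutant 5 and wild type 5, and the highest value of all was that of mutant 4. The groups overlapped, and the means were 8.51 ± 1.24 in mutants and 8.16 ± 0.94 in wild types (SD, n = 5 each). By the titles, mutant 5 and wild type 5 also carried the 2 highest animal numbers, set apart from the close run of the other 8. The labels name no day of preparation, and the part of animal number in these low values was not tested. Leaving both arrays out is therefore given beside the results that rest on them.

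The residual SD, the spread between mice of a genotype, had a median of 1.21 log2 units over the 33 genes and 0.132 over all 18193 genes. The 99th percentile of all genes was 0.766, and 25 of the 33 lay above it. Without mutant 5 and wild type 5 the median over the 33 genes was 0.729. From the lowest to the highest array, Slc5a12, a lactate carrier, spanned 65.5-fold, Keg1, a kidney glycine N-acyltransferase-like enzyme, 56.4-fold, and Miox, which opens the inositol ring, 56.0-fold. Fbp1 spanned 45.2-fold and Kap, an androgen-regulated kidney protein of mice, 43.4-fold. At the other end Aqp1 spanned 1.95-fold, Cyp4b1 1.80-fold, Cyp24a1 1.44-fold and Ass1 1.26-fold.

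**Figure D1:**
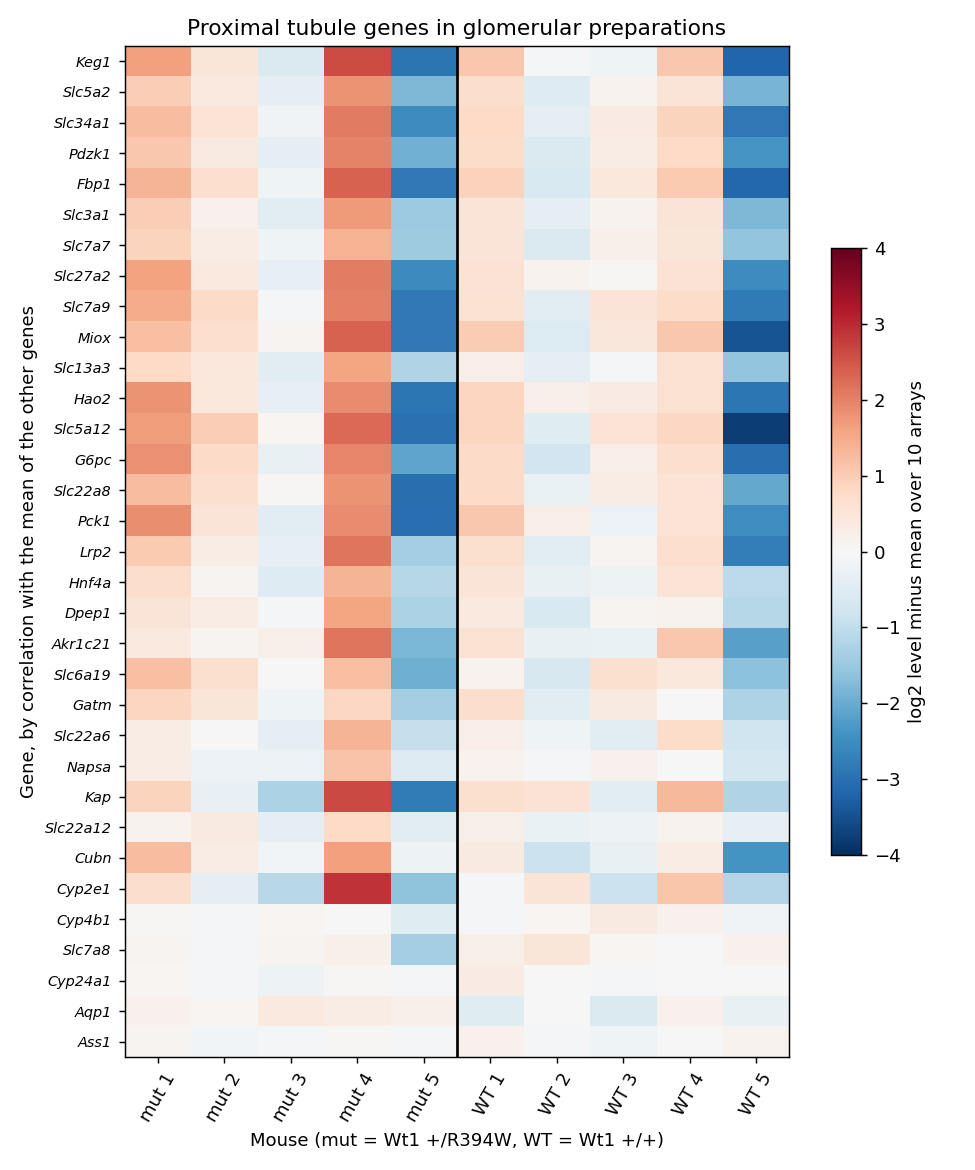
Heat map of the 33 proximal tubule genes (rows, ordered by their correlation with the mean of the other genes) in 10 mice (columns, Wt1 +/R394W left of the line and Wt1 +/+ right of it). Colour gives the log2 level minus the gene's mean over 10 arrays. Mutant 4 is the reddest column, mutant 5 and wild type 5 are the bluest, and the last 5 rows change little, apart from Slc7a8 in mutant 5.

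Among the endocytic receptors and apical carriers the same mice were high and low. Lrp2 had log2 levels of 8.67, 7.93, 7.30, 9.79 and 6.29 in mutants 1 to 5, against 8.29, 7.17, 7.76, 8.31 and 4.87 in wild types 1 to 5. Slc34a1 had log2 levels of 10.85, 10.18, 9.50, 11.71 and 7.12 in mutants 1 to 5, against 10.42, 9.26, 9.97, 10.51 and 6.78 in wild types 1 to 5. Slc5a12 had log2 levels of 9.90, 9.21, 8.29, 10.49 and 5.23 in mutants 1 to 5, against 9.08, 7.74, 8.78, 9.06 and 4.46 in wild types 1 to 5. Slc34a1 is the phosphate carrier NaPi-IIa. In all of these genes mutant 4 was highest, wild type 5 lowest and mutant 5 lowest of the mutants, and the genotypes overlapped. Slc5a2, the glucose carrier SGLT2, ranged from 7.19 to 10.76 in mutants, against 7.10 to 9.68 in wild types. Slc6a19, the neutral amino acid carrier of the brush border, ranged from 5.00 to 8.16 in mutants, against 5.31 to 7.59 in wild types.

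The metabolic enzymes were high and low in the same mice. Miox had log2 levels of 10.86, 10.33, 9.75, 12.02 and 6.78 in mutants 1 to 5, against 10.66, 9.10, 10.11, 10.72 and 6.21 in wild types 1 to 5. G6pc had log2 levels of 9.91, 8.85, 7.78, 10.03 and 5.97 in mutants 1 to 5, against 8.85, 7.32, 8.35, 8.76 and 5.08 in wild types 1 to 5. G6pc releases glucose in the last step of gluconeogenesis. Within mutants alone Miox spanned 37.6-fold and Fbp1 37.2-fold, and within wild types they spanned 22.8-fold and 18.2-fold. Pck1, which makes phosphoenolpyruvate, ran from 5.95 to 10.90 in mutants, against 6.51 to 10.07 in wild types. Hao2, a peroxisomal hydroxy acid oxidase, ran from 6.01 to 10.79 in mutants, against 6.0 to 9.75 in wild types. Slc27a2, a fatty acid carrier and acyl-CoA synthetase, ran from 6.50 to 11.09 in mutants, against 6.54 to 9.63 in wild types. Gatm, which makes the precursor of creatine, moved less, from 8.14 to 10.37 in mutants, against 8.29 to 10.22 in wild types.

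The remaining carriers and the regulator repeated the pattern with different amplitudes. Slc22a8 had log2 levels of 9.02, 8.46, 7.86, 9.58 and 4.78 in mutants 1 to 5, against 8.55, 7.53, 8.11, 8.35 and 5.74 in wild types 1 to 5. Hnf4a had log2 levels of 9.37, 8.78, 8.17, 10.02 and 7.53 in mutants 1 to 5, against 9.18, 8.36, 8.46, 9.21 and 7.63 in wild types 1 to 5. The 2 low mice were low in both genes, and the genotypes overlapped. Hnf4a spanned 5.61-fold over the 10 arrays and Slc22a8 28.0-fold. The subunits of amino acid exchangers Slc3a1, Slc7a7 and Slc7a9 spanned 11.2-fold, 7.73-fold and 29.2-fold. Pdzk1, the scaffold under brush border carriers, ran from 6.56 to 10.46 in mutants, against 6.14 to 9.28 in wild types. Dpep1, a brush border dipeptidase, spanned 7.11-fold and Akr1c21, a steroid dehydrogenase of mice, 19.9-fold. The dicarboxylate carrier Slc13a3 spanned 9.01-fold and Slc22a6 4.84-fold. Slc22a12, the urate carrier URAT1, spanned 2.42-fold, and Napsa, an aspartic protease, 3.57-fold. These spans depend on the probe set. Other Hnf4a probe sets ran from 3.21 to 7.07, from 4.2 to 6.3 and from 6.34 to 6.66, and another of Slc22a12 from 7.8 to 8. Of 22 further probe sets of 16 of the genes, 12 had r above 0.9 with the main one.

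A total of 23 of the 33 genes correlated above 0.9 with the mean of the other genes over the 10 arrays. Of the 18160 genes outside the set, 1.21% correlated above 0.9 with the mean of the 33. The weakest inside that limit was Slc22a6 (r = 0.905) and the first outside it Napsa (0.881). Mutant 4 was the highest array for 21 of the 23. The lowest array was wild type 5 for 14 and mutant 5 for 9, and wild type 1 or wild type 4 was the highest wild type for 22. Over all 528 pairs of the 33 genes the median r was 0.873, with 236 pairs (44.7%) above 0.9 and 21 below 0. Among the 253 pairs of the 23 genes the median was 0.960 and the lowest 0.750. Taking each gene's deviation from its genotype mean gave a median of 0.891 over all pairs, and leaving out mutant 5 and wild type 5 gave 0.829. All pairs share the same 10 arrays and their normalization.

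**Figure D2:**
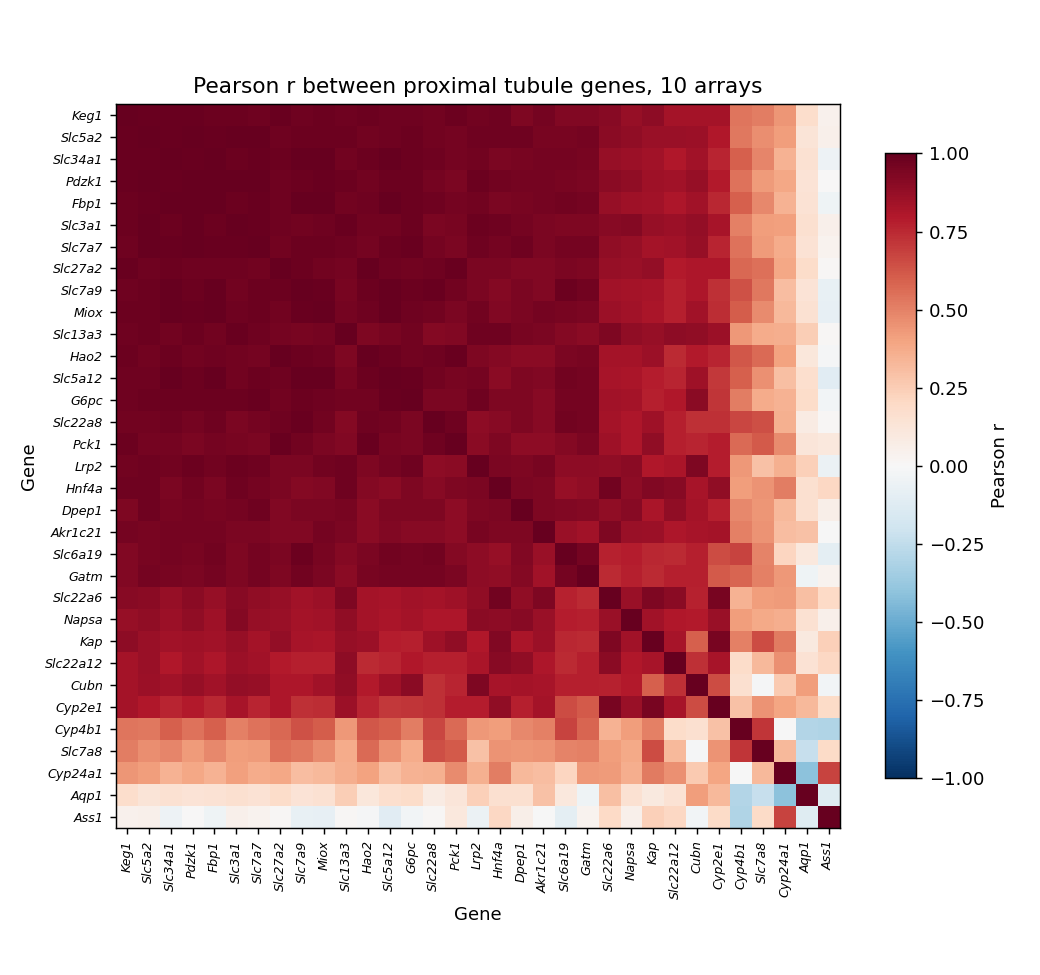
Pearson r over 10 arrays between each pair of the 33 genes, in the same order on both axes. The block of 23 genes at the upper left is nearly uniform, with a median r of 0.960, and Cyp4b1, Slc7a8, Cyp24a1, Aqp1 and Ass1 stand outside it.

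Megalin served as the yardstick for tests of these relations. Genes outside the set were not tested against Lrp2, so the count of genes that passed has no share of all genes beside it. Since the set was chosen with earlier results of these data known, the count describes these genes only. Of 32 genes set against Lrp2, 27 had an adjusted p under 0.05 for Pearson's r (two-sided permutation test, 100000 permutations, Benjamini-Hochberg over 32 relations), and the same number did for Spearman's rho and for r of the deviations from genotype means. Slc3a1 had r = 0.982 (permutation p = 1e-05, the smallest the permutations can give, adjusted p = 2.91e-05) and rho = 0.976 (permutation p = 5e-05, adjusted p = 0.00016). Cyp2e1 had the lowest r of the 27, 0.789 (permutation p = 0.00761, adjusted p = 0.00902), with rho = 0.855 (permutation p = 0.00273, adjusted p = 0.00336). Slc22a12 had the lowest rho of the 27, 0.830 (permutation p = 0.0047, adjusted p = 0.00557), with r = 0.821 (permutation p = 0.00367, adjusted p = 0.0047). Without the 2 arrays farthest from the median of Lrp2, r was 0.995 for Slc3a1 and 0.708 for Cyp2e1, the lowest of the 27. Without mutant 5 and wild type 5, r with Lrp2 was 0.785 or higher in all 27. The 5 others did not pass this permutation test. Aqp1 had r = 0.245 (adjusted p = 0.511) and rho = 0.224 (adjusted p = 0.557), and Cyp4b1 had r = 0.431 (adjusted p = 0.235) and rho = 0.321 (adjusted p = 0.408). Slc7a8 had r = 0.294 (adjusted p = 0.356) and rho = 0.0545 (adjusted p = 0.892). Cyp24a1 had r = 0.360 (adjusted p = 0.327) and rho = 0.600 (adjusted p = 0.0828), and Ass1 had r = -0.0679 (adjusted p = 0.856) and rho = 0.224 (adjusted p = 0.557). All of these are permutation values adjusted over the 32 relations.

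These 5 genes did not pass the permutation test against Lrp2 on 10 arrays, which does not show that they lack the shared pattern. Cyp24a1 and Ass1 had low mean levels, 5.55 and 4.71, below the median of all values on the arrays (6.35). For deviations from genotype means, r with Lrp2 was 0.613 for Cyp4b1, 0.516 for Cyp24a1 and 0.473 for Slc7a8. It was 0.0623 for Aqp1 and -0.0293 for Ass1. Aqp1 had log2 levels of 10.19, 10.09, 10.38, 10.31 and 10.21 in mutants 1 to 5, against 9.53, 10.03, 9.42, 10.17 and 9.72 in wild types 1 to 5. Aqp1 is the water channel of proximal tubule and thin descending limb, and it is also made by endothelium. Cyp4b1 had log2 levels of 11.97, 11.86, 12.01, 11.92 and 11.44 in mutants 1 to 5, against 11.89, 11.99, 12.29, 12.08 and 11.77 in wild types 1 to 5. Cyp4b1, a cytochrome P450, was within 0.85 log2 units over all arrays and was lowest of its genotype in mutant 5 and wild type 5, but by far less than Miox was in the same mice. Slc7a8 had log2 levels of 9.20, 9.01, 9.21, 9.30 and 7.74 in mutants 1 to 5, against 9.32, 9.58, 9.17, 9.12 and 9.27 in wild types 1 to 5. Slc7a8, the basolateral neutral amino acid exchanger LAT2, was low in mutant 5 only and ranged over 0.46 in wild types. Without mutant 5 and wild type 5 the correlation with the mean of the other genes was -0.35 for Cyp4b1 and -0.16 for Slc7a8.

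Cyp24a1, which breaks down active vitamin D, lay between 5.35 and 5.88 on all arrays by its main probe set. Another Cyp24a1 probe set, with a lower mean of 4.63, ran more widely, from 3.98 to 5.81. It was highest in wild types 1 and 2 (5.81 and 5.54) and had r = 0.827 with the main probe set. Its r with the mean of the other genes was 0.414. Ass1, an enzyme of arginine synthesis, lay between 4.55 and 4.88, close to the lower quartile of all values on the arrays (4.72). A further probe set that is annotated to Ass1 and another gene together was not used, so these levels say little of the transcript.

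Kap and Cyp2e1 shared a part of their pattern that was weak in most of the rest of the 33 genes. Kap had log2 levels of 11.76, 10.58, 9.60, 13.50 and 8.06 in mutants 1 to 5, against 11.50, 11.46, 10.40, 12.16 and 9.65 in wild types 1 to 5. Cyp2e1 had log2 levels of 7.55, 6.47, 5.73, 9.72 and 5.25 in mutants 1 to 5, against 6.77, 7.35, 5.97, 7.96 and 5.67 in wild types 1 to 5. Cyp2e1 is a cytochrome P450 that oxidises small solvents. Their r with each other was 0.947, and over the 33 genes the first principal component held 92.9% of the variance and the second 3.25%, with its largest loadings on Cyp2e1 (0.59) and Kap (0.57). Wild type 2 exceeded wild type 3 for Kap (11.46 and 10.40) and Cyp2e1 (7.35 and 5.97), whereas it was below wild type 3 for Slc5a12 (7.74 and 8.78) and Miox (9.10 and 10.11). Aqp1 (10.03 and 9.42), Pck1 (9.28 and 8.77), Slc22a6 (7.41 and 7.16), Slc7a8 (9.58 and 9.17), Slc27a2 (9.18 and 9.08) and Keg1 (8.62 and 8.53) were also higher in wild type 2, by smaller amounts. Without mutant 5 and wild type 5, r with the mean of the other genes was 0.824 for Kap and 0.810 for Cyp2e1. The shared part was not particular to Kap and Cyp2e1. Among proximal tubule genes outside the 33, Acy3 had r = 0.98 with Kap and 0.96 with Cyp2e1, against 0.90 with the mean of the 33. For Nat8 these values were 0.93, 0.96 and 0.91. Some ran closer to the mean of the 33, such as Slc34a3 (0.82, 0.79 and 0.99).

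**Figure D3:**
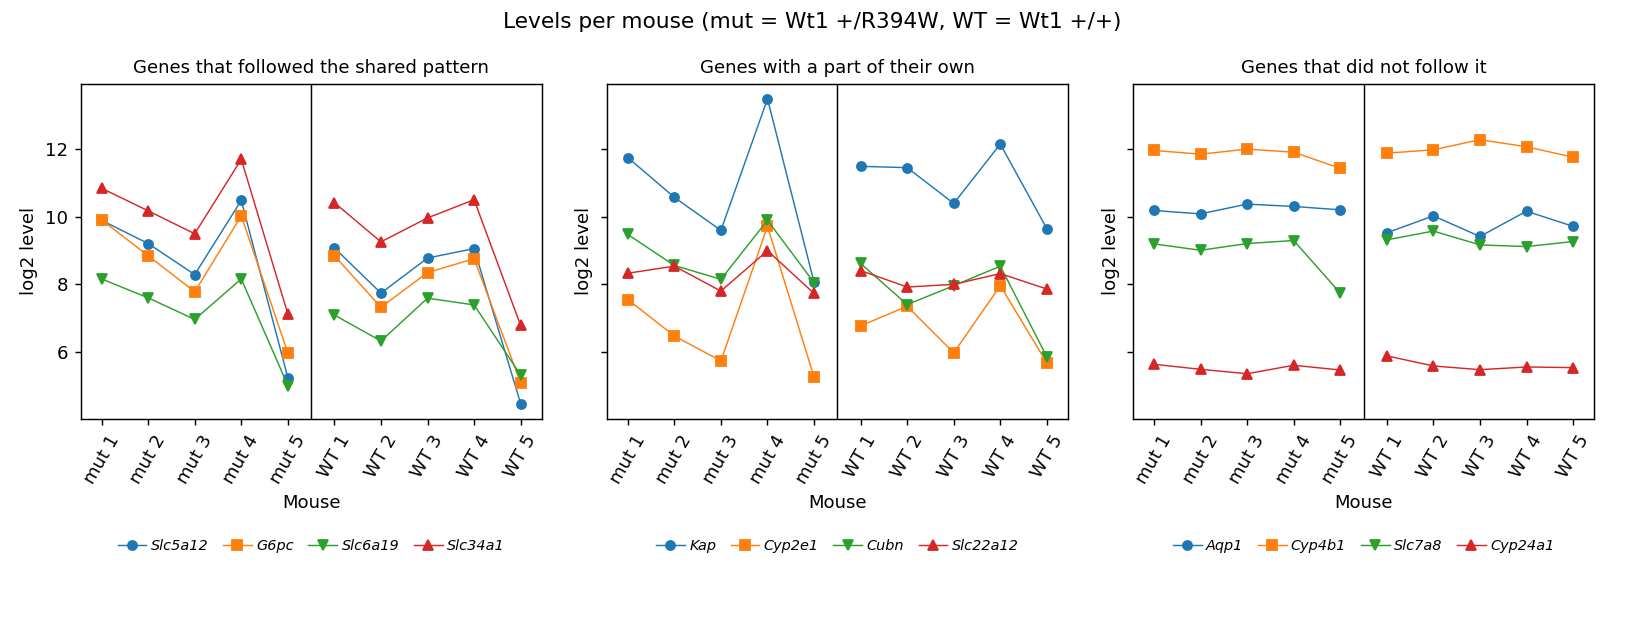
Log2 level of 12 genes in each mouse (Wt1 +/R394W left of the line, Wt1 +/+ right of it), picked after their values were seen. Examples are of the shared pattern (left), genes with a part of their own (middle) and genes not passing the Lrp2 test (right). Slc5a12 falls to 5.23 in mutant 5 and 4.46 in wild type 5, while Cyp4b1 stays at 11.44 and 11.77 in the same mice.

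Cubilin was low in wild type 5, as megalin was, but not in mutant 5 to the same extent. Cubn had log2 levels of 9.48, 8.56, 8.15, 9.90 and 8.05 in mutants 1 to 5, against 8.62, 7.40, 7.96, 8.54 and 5.85 in wild types 1 to 5. In mutant 5 Cubn stood close to mutant 3 (8.05 and 8.15), while wild type 5 lay far below the next lowest wild type (5.85 and 7.40). Another Cubn probe set had 7.26 in mutant 5, against 4.86 in wild type 5. Lrp2 had 6.29 in mutant 5 against 4.87 in wild type 5 by its main probe set, but 5.03 against 5.13 by another probe set that had r = 0.961 with it over 10 arrays.

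Genotype was not associated with a called change in any of these genes. With limma on all probe sets and an adjusted p under 0.05 as the call, 0 of 33 were called, against 1.26% of all genes. At an unadjusted p under 0.05 there was 1 of 33, against 11.0% of all genes, and adjusted p-values of the 33 ran from 0.226 to 0.959. The groups separated without overlap in 0 of 33, against 3.67% of all genes. The median difference, mutant minus wild type, was 0.40 log2 units over the 33 genes and 0.004 over all genes, with 28 of the 33 above 0. Since most of the 33 follow the same arrays, these are not 28 separate observations. Without wild type 5 the median was -0.04 with 12 of 33 above 0, and without mutant 4 it was 0.01 with 18 of 33 above 0. Without mutant 5 it was 0.90 with 29 of 33 above 0. Without both mutant 5 and wild type 5 it was 0.46 with 29 of 33 above 0.

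For the receptors, Cubn averaged 8.83 ± 0.82 in mutants and 7.67 ± 1.13 in wild types (SD, n = 5 each), a difference of 1.16 ± 0.53 (SE, limma adjusted p = 0.537), and Lrp2 differed by 0.72 ± 0.74 (adjusted p = 0.830). For the sodium-coupled carriers, Slc34a1 differed by 0.49 ± 0.88 (adjusted p = 0.911), with a 95% interval from -1.44 to 2.41, and Slc5a12 by 0.80 ± 1.07 (adjusted p = 0.874). Among the enzymes Miox averaged 9.95 ± 1.96 in mutants and 9.36 ± 1.88 in wild types (SD, n = 5 each), with a difference of 0.59 whose interval ran from -1.65 to 2.83. The upper end of that interval is a 7.11-fold higher level in mutants, so these arrays leave the size of a difference in Miox wide. Among organic anion carriers Slc22a6 differed by 0.17 ± 0.39 and Slc22a8 by 0.28 ± 0.83 (adjusted p = 0.932 and 0.947).

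The smallest p of the 33 was that of Aqp1, the gene whose spread was among the smallest. It averaged 10.24 ± 0.11 in mutants and 9.77 ± 0.32 in wild types (SD, n = 5 each), a difference of 0.46 ± 0.14 (SE, 95% interval 0.16 to 0.76, unadjusted p = 0.00558, limma adjusted p = 0.226). The lowest mutant (10.09) lay below the highest wild type (10.17), so the groups overlapped. Aqp1 and Cubn were the only ones of the 33 whose difference exceeded their residual SD. Negative differences were found for Slc7a8 (-0.40), Kap (-0.34), Cyp4b1 (-0.16), Cyp24a1 (-0.10) and Ass1 (-0.03), none of them called. A further 22 probe sets of 16 of the genes gave 0 calls, against 0.853% of all probe sets, with a smallest adjusted p of 0.449.

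A fit with the mean of 45 other proximal tubule genes per array as a covariate removed most of the shared spread. The median residual SD of the 33 genes was 0.339 and the median SE of the difference 0.18, against 0.65 without the covariate. In that fit 0 of 33 were called, against 1.47% of all genes, and 4 of 33 had an unadjusted p under 0.05, against 12.3% of all genes. The median difference was 0.03 with 21 of 33 above 0. Cubn differed by 0.89 ± 0.25 (adjusted p = 0.165), Aqp1 by 0.46 ± 0.14 (0.221), Kap by -0.79 ± 0.29 (0.317) and Slc7a8 by -0.49 ± 0.21 (0.409), all limma adjusted p-values. G6pc, the second highest difference without the covariate, was at 0.37 ± 0.24 with it. The covariate was built from tubule genes of the same arrays, so it would also take up a genotype effect common to all tubule genes.

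**Figure D4:**
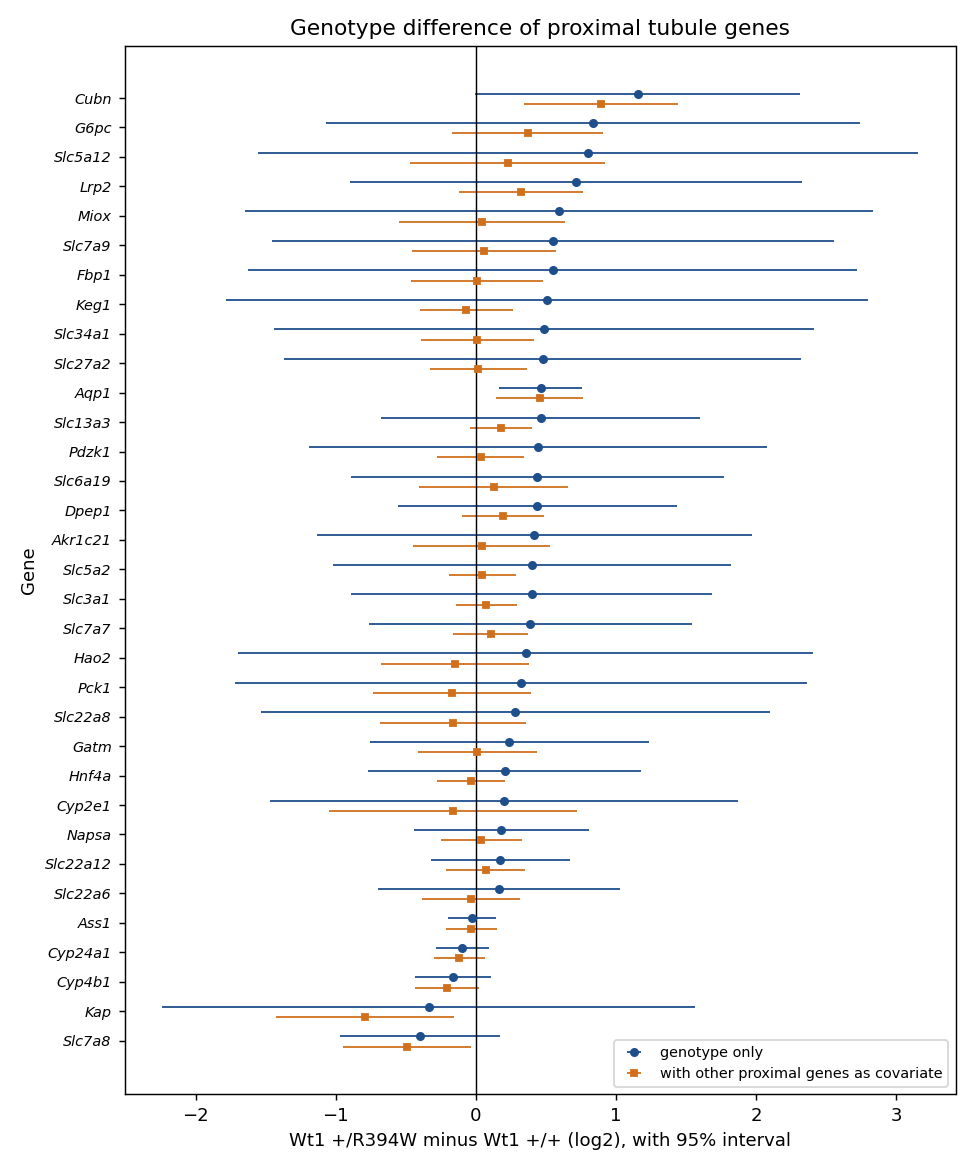
Wt1 +/R394W minus Wt1 +/+ difference in log2 level for each of the 33 genes, with its 95% interval, from the fit with genotype only (blue circles) and with other proximal genes as covariate (orange squares). The blue intervals of the genes with large spread reach far to both sides of 0, and the orange ones are narrower and centre near 0.03.

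The other proximal tubule genes ran with the 33. Their array mean had r = 0.996 with the mean of the 33 over 10 arrays (0.992 without mutant 5 and wild type 5), 26 of 45 correlated above 0.9 with it, and limma called 0 by genotype (1 at an unadjusted p under 0.05). The mean of 22 distal nephron genes was 6.55 in mutant 5 and 7.52 to 7.86 in the other mutants, against 6.53 in wild type 5 and 7.18 to 7.75 in the other wild types. Over 10 arrays its r with the 33 was 0.924, but 0.664 without both low mice. The distal genes differed among themselves: 4 of 22 correlated above 0.9 with the mean of the 33, with a median r of 0.744, from -0.0996 to 0.982. The mean of 15 podocyte genes ran the other way, from 12.06 to 12.39 in mutants and from 12.36 to 12.52 in wild types. Its r was -0.62 over 10 arrays and -0.89 without both low mice. Other list means also had negative r both ways: tissue handling (-0.51 and -0.66), erythroid (-0.42 and -0.71), leukocyte (-0.13 and -0.41) and endothelial genes (-0.07 and -0.71). Mesangial and parietal epithelial means had negative r over 10 arrays only. In the podocyte list limma called 2 of 15, both lower in mutants, against 1.26% of all genes in either direction. These were Plce1, with a difference of -0.74, and Thsd7a, with -0.70. With the mean of other proximal genes as covariate they differed by -0.73 (limma adjusted p = 0.012) and -0.65 (0.021). In that fit 1.47% of all genes were called. The cause of these differences was not tested. The lowest podocyte mean was that of mutant 4, which had the highest proximal tubule mean. The first principal component of all probe sets (26.6% of variance) had r = 0.857 with the mean of the 33 genes. These array-level correlations are descriptions over shared libraries.

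**Figure D5:**
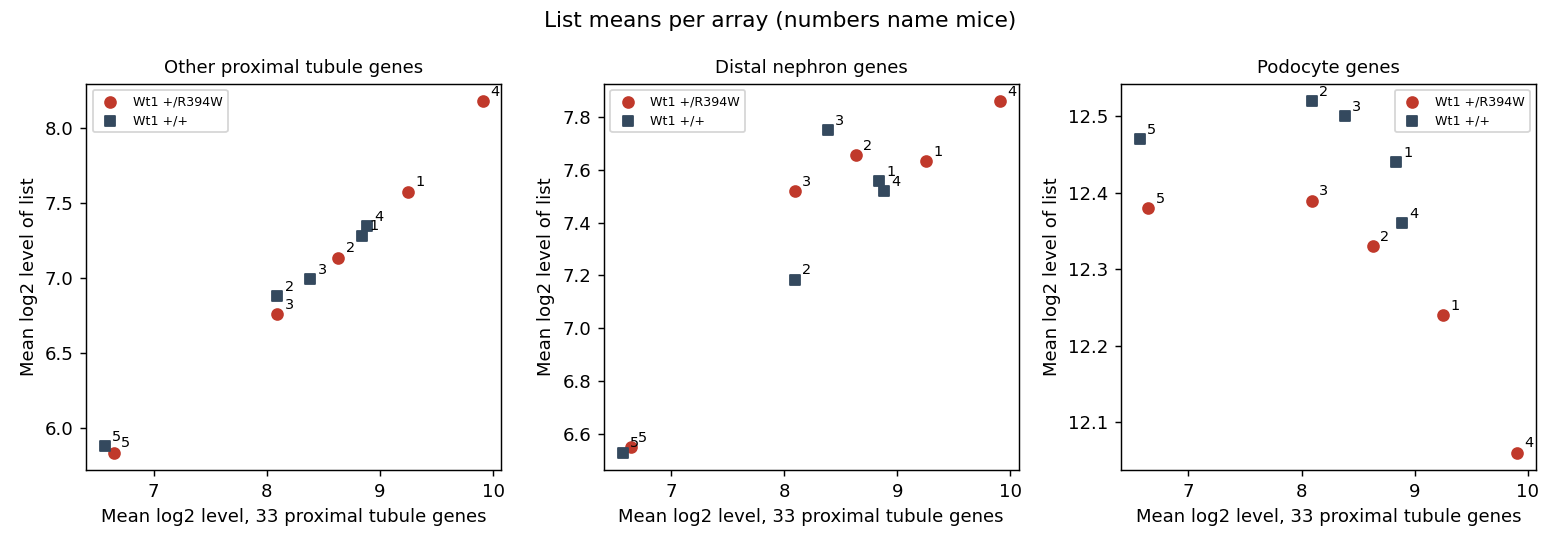
Mean log2 level of other proximal tubule genes (left), distal nephron genes (middle) and podocyte genes (right) against the mean of the 33 proximal tubule genes, 1 point per array (red circles Wt1 +/R394W, dark squares Wt1 +/+, numbers name mice). The left panel is close to a line, the distal mean is far lower in the 2 lowest arrays, and the podocyte mean is lowest, at 12.06, in mutant 4.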

How the data were processed

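The authors deposited 1 table of log2 expression values for 10 arrays of total RNA, named as RMA (background correction, quantile normalization and probe set summary) in the submitters' processing notes. Its version is not given in the sources used here. RMA compresses changes at low signal, so folds near the low end are understated. Of 45101 probe sets, 64 controls were left out and 45037 tested; 34945 named 1 gene, 932 several and 9160 none in the annotation used. All columns matched a mouse by title.

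Genotypes came from the labels. Mutant minus wild type was fitted with limma (version 3.58.1, R 4.3.3), 5 mice each, without covariates, with moderated variances and Benjamini-Hochberg adjustment over all probe sets; p-values measure the spread between mice. The fit was tested on simulated data with 200 changed probe sets. It recovered 51.5% of changes of 0.5 log2 units, 90.0% of 1.0 and 98.0% of 2.0. Of its calls, 8.85%, 6.25% and 7.55% were false. The simulated noise was independent between probe sets, so the test does not cover spread shared by genes, as in the proximal tubule genes. Relations with Lrp2 used permutation tests in Python (version 3.11.15). The members and lists were chosen with earlier results of these data known. Named were all members, Wt1, and the genes outside the lists most and least like the members' mean. Alternatives covered centring, quantile normalization, a signal filter, variance models, array weights, probe set choice, mice with close animal numbers, a tubule covariate and each mouse left out; leaving out both low mice was chosen after seeing the data.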

Additional observations from a re-analysis of the deposited data

Results flagged for a closer look

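In 9 of 88 groups of 5 values examined, 1 mouse stood apart by the size of its gap to the next value relative to the group's range; chance flags about 1 in 20 such groups, and the groups share arrays. Wild type 5 was the low mouse for 5 genes. Slc5a12 was 4.46 in it, with the nearest wild type at 7.74. Slc27a2 was 6.54 there (nearest 9.08), Keg1 5.50 (nearest 8.53), Hao2 6.0 (nearest 9.10) and Napsa 6.69 (nearest 7.31). Mutant 5 was the low mouse for Cyp4b1, at 11.44 (nearest 11.86), for Slc7a8, at 7.74 (nearest 9.01), and for the mean of the distal nephron genes, at 6.55 (nearest 7.52). Wild type 1 was high for Cyp24a1, at 5.88 (nearest 5.58).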

How the results depend on the processing

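No paired analysis was possible because the labels give no litters and the numbers of mice carry no pairing. None of the 33 genes was called under any alternative setting. Over the 656 combinations of a gene and a setting, the smallest limma adjusted p was 0.0994. The difference kept its direction in 614 and changed it in 42, which came from 21 genes. The setting with close animal numbers kept only wild types 2 to 4 and mutants 1 to 4, so wild type 1 was left out as well. The number of genes called by genotype was 230 with all mice and 68 with close numbers. It was 138 without mutant 5 and wild type 5 (chosen after seeing the data), and 133 to 190 with 1 mouse left out. The median residual SD of the 33 genes was 0.780 with close numbers, 0.339 with the covariate, 0.729 without both low mice and 0.991 to 1.30 with 1 mouse left out. Differences changed sign with close numbers for Kap (0.0176) and Ass1 (0.0724), and without both low mice for Ass1 (0.0111). With the covariate they did for Slc22a6 (-0.0338), Slc22a8 (-0.161), Pck1 (-0.174), Hnf4a (-0.0344), Cyp2e1 (-0.163), Keg1 (-0.068) and Hao2 (-0.149); the cause was not tested. With 1 mouse left out the differences that changed sign ranged as follows: Pck1 -0.258 to 1.13, Hao2 -0.325 to 1.12, Slc22a6 -0.153 to 0.416, Slc22a8 -0.197 to 1.07, Slc22a12 -0.00681 to 0.312, Hnf4a -0.107 to 0.515, Cyp2e1 -0.494 to 0.624, Keg1 -0.229 to 1.3, Akr1c21 -0.0769 to 0.922, Napsa -0.0842 to 0.332, Kap -1.04 to 0.324, Ass1 -0.077 to 0.00593, Slc34a1 -0.168 to 1.17, Slc5a2 -0.0171 to 0.897, Slc5a12 -0.0441 to 1.65, Fbp1 -0.172 to 1.33, Miox -0.197 to 1.38, Slc27a2 -0.0916 to 1.17, Gatm -0.0403 to 0.614, Slc7a9 -0.0852 to 1.33, Pdzk1 -0.091 to 0.975. The number of arrays and the spread of the tubule genes limit what could be detected.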

Other observations

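Apart from the 33 proximal tubule genes, 219 of 18160 genes (1.21%), members of the other lists included, correlated above 0.9 with the mean of the 33 proximal tubule genes over 10 arrays, and 6 correlated below -0.9. The 10 with the highest r outside all lists, among genes with a mean log2 level of at least 6, were Pter (0.998), Prss8 (0.996), Ugt3a2 (0.995), Hsd3b2 (0.994), Chdh (0.993), Kcnj16 (0.992), Spink1 (0.992), Adhfe1 (0.991), Slc16a12 (0.991) and Fut9 (0.991). Chdh oxidises choline and Hsd3b2 is a hydroxysteroid dehydrogenase. Pter ran from 6.75 to 9.86 over the arrays and differed by 0.24 ± 0.56 between mutants and wild types (SE, limma adjusted p = 0.931). The 5 lowest were Prm2 (-0.936), Rab6a (-0.928), Snx1 (-0.916), Klhl21 (-0.901) and Dpm2 (-0.899).

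The mean of the tubule injury list had r = 0.756 with the mean of the 33 proximal tubule genes over 10 arrays. It was 0.978 without mutant 5 and wild type 5, as a description over shared arrays. Gene by gene the list was mixed over 10 arrays, with a median r of 0.292, from -0.274 to 0.904, and 1 of 6 above 0.9. By genotype limma called 0 of its 6 measured members (0 at an unadjusted p under 0.05). Krt8, a keratin of tubule and collecting duct epithelium, had r = 0.904 with the mean of the 33 genes. Havcr1, the kidney injury molecule, lay between 4.67 and 4.95 in mutants and between 4.40 and 4.86 in wild types. Of 10 genes that respond to tissue handling, 0 were called (0 at an unadjusted p under 0.05), and their mean ran from 8.91 to 9.71 in mutants and from 9.10 to 9.68 in wild types. In the other lists the calls were 2 of 15 podocyte genes, 1 of 10 leukocyte genes and 1 of 3 erythroid genes, all lower in mutants, against 1.26% of all genes called in either direction. Plce1 averaged 11.18 in mutants and 11.92 in wild types, and Thsd7a 10.78 in mutants and 11.47 in wild types (podocyte list). Csf1r, a macrophage receptor, averaged 8.48 in mutants and 9.47 in wild types, and Slc25a37, a mitochondrial iron carrier, 8.75 in mutants and 9.34 in wild types. Of 11 endothelial, 5 mesangial and 3 parietal epithelial genes, 0 were called; at an unadjusted p under 0.05 there were 2 in each of these lists, against 11.0% of all genes.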
